A study of Rattus norvegicus with 42 samples.

Results

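Lung gene expression was compared between high-fat and regular-diet rats that had inhaled crystalline silica and were sampled 3 months later. The comparison held 5 high-fat and 5 regular-diet rats, 10 of the 42 rats sequenced, chosen by their labelled diet, exposure and time point. All were male F344/DuCrl rats, 3 months old at purchase and housed 3 per cage. The high-fat diet supplied 60% of its energy as fat and the regular diet 18%. Feeding began 2 weeks before exposure and went on until the lung was taken. Both groups inhaled silica at 15 mg/m3 in 5 daily sessions of 6 hours each. A piece of lung was used for total RNA, from which stranded, ribosomal RNA depleted libraries were made. Rats that breathed filtered air on the same diets (5 high-fat and 4 regular-diet, 3 months) and rats with silica sampled at 9 months (6 high-fat and 5 regular-diet) are used below as further comparisons. The labels give no batch.

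Inhaled silica crystals are taken up by alveolar macrophages, the resident phagocytes of the air spaces, and the damaged cells release mediators that keep drawing neutrophils and monocytes into the lung. Dietary fat reaches the lung as fatty acids and cholesterol, which lung cells sense through sterol-regulated and fatty acid-activated transcription factors. The lung also runs a circadian clock, a feedback loop of transcription factors that feeding time and diet are known to act on in rodent tissues.

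Total counts of the 10 silica rats lay between 5614899 and 8259635. They averaged 6703600 ± 867900 in high-fat rats and 7073100 ± 825660 in regular-diet rats (SD, n = 5 each, two-sided exact permutation p = 0.508). The share of counts on ribosomal RNA genes averaged 1.17% ± 0.263 in high-fat rats and 0.981% ± 0.295 in regular-diet rats (SD, n = 5 each, exact permutation p = 0.302). The smallest p this design can give is 0.00794. Lung-defining genes were abundant in every rat: 10424 to 15639 in high-fat rats and 11076 to 14349 in regular-diet rats CPM for Sftpc, the surfactant protein of alveolar type 2 cells, and 1208 to 1417 in high-fat rats and 1236 to 1469 in regular-diet rats CPM for Ager, which marks alveolar type 1 cells. CPM, the unit of all levels here, divides a gene's count by its rat's scaled library size, so that rats of unequal depth can be set side by side. Each library carries its own animal tag, so p-values measure the spread between rats, which are numbered within their group only to name them. Rats shared cages, but which rats did so is not given, and the fits held no term for cage. Differences between cages therefore cannot be told apart from diet. In a piece of whole lung, fewer cells of a type and less RNA per cell cannot be told apart.

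A small set of lung genes passed the test for diet in silica-exposed rats. Of 15234 genes tested, 107 passed an adjusted p of 0.05 (0.702%), 45 higher (0.295%) and 62 lower (0.407%) on the high-fat diet. Most differences were small: the median log2 fold change was 0.60 among the genes that rose and -0.47 among those that fell, and 11 genes rose and 2 fell by at least 2-fold. All genes tested had a median of -0.0014. An unadjusted p under 0.05, a cut that many genes pass by chance alone, was found for 1890 genes. The risers were led by the cytochrome P450 Cyp1a1, genes of the circadian clock, the glycerol channel Aqp3 and the muscle sodium channel gene Scn4a. The genes that fell included neutrophil-attracting chemokines, macrophage genes and the chaperone Hspa5. In 88 of the 107 genes the values of the 5 high-fat and 5 regular-diet rats did not overlap. Over all genes tested 2.19% had groups that did not overlap, 0.965% with high-fat rats higher and 1.23% with high-fat rats lower. The calls came from the same rats, so a lack of overlap, here and for single genes below, describes the values and is no separate support. Of the 107, 10 carry placeholder symbols and are counted only.

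**Figure D1:**
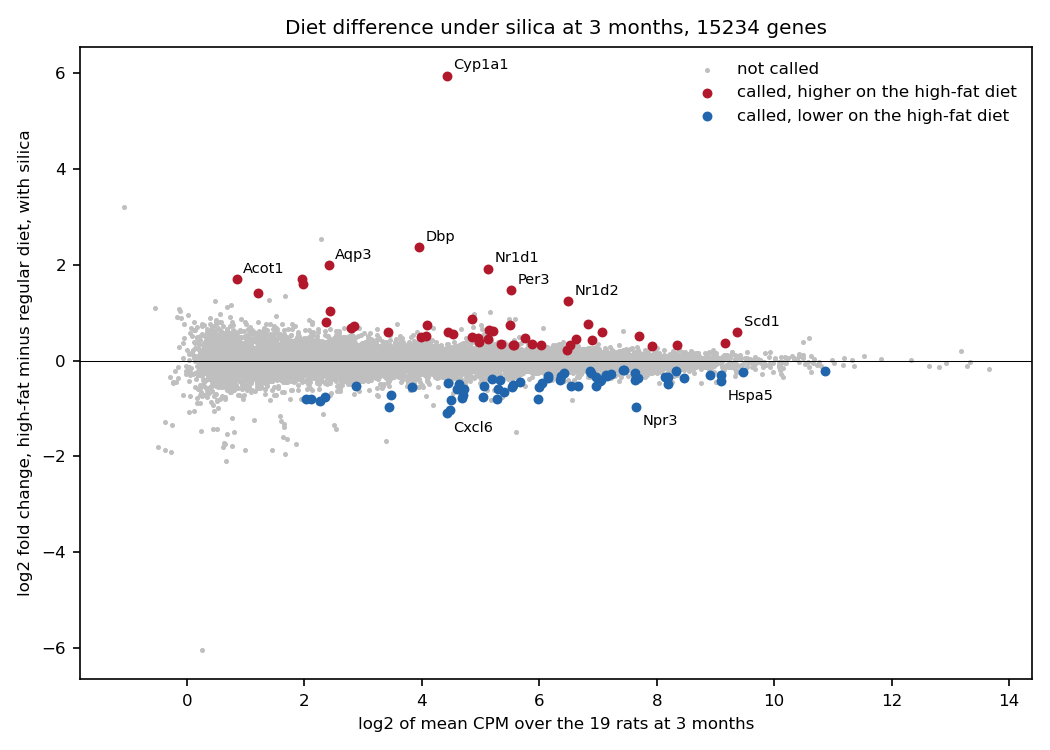
Log2 fold change of high-fat over regular diet in silica rats at 3 months (vertical) against log2 mean CPM over the 19 rats of that time point (horizontal) for 15234 genes; coloured points are the 107 called genes. Cyp1a1 stands at a log2 fold change of 5.95, above Dbp at 2.38, and most called genes lie within 1 log2 unit of 0.

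In the clock, the proteins of Arntl (BMAL1) and of Clock or Npas2 pair and switch on genes with E-box sequences, among them the Per and Cry genes, Nr1d1, Nr1d2, Dbp and Tef. The products of Per and Cry then block that pair, and those of Nr1d1 and Nr1d2 (REV-ERB alpha and beta) repress Arntl and Npas2 through nuclear receptor sites. Dbp and Tef encode activators that bind D-box sequences. Of 23 clock genes tested, 7 rose and 2 fell on the high-fat diet, and their median log2 fold change was 0.14. The 7 that rose were 5 of the 13 repressor genes tested (Nr1d1, Nr1d2, Per2, Per3 and Cry2) and 2 of the 5 output genes (Dbp and Tef). The 2 that fell were the activator genes Arntl and Npas2, of 5 activators tested. The labels give no hour of tissue collection, so a difference in that hour between the diet groups cannot be told apart from diet in these genes. The same holds for any other gene that varies over the day.

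All 9 of these genes had an entry in the RefSeq promoter table (build GRCr8, windows of 250 bases before to 50 after a transcript start, Arntl under the name Bmal1). The windows of 5 genes are shown because they hold a motif that was searched for, set in capitals. The motifs were CACGTG (the E-box) for Nr1d1 and Tef, TTATGTAA (a D-box) for Per2, and AGGTCA (the nuclear receptor core site) for Nr1d2 and Arntl. Both strands were searched for these letters and for the second D-box spelling TTACGTAA.
Nr1d1, chr10:84229405-84229704, minus strand: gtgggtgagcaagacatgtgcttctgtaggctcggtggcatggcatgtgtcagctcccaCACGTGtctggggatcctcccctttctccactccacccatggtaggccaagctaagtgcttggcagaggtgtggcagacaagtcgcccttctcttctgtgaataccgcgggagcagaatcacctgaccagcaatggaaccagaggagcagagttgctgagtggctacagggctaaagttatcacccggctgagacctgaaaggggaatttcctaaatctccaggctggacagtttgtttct
Tef, chr7:115206577-115206876, plus strand: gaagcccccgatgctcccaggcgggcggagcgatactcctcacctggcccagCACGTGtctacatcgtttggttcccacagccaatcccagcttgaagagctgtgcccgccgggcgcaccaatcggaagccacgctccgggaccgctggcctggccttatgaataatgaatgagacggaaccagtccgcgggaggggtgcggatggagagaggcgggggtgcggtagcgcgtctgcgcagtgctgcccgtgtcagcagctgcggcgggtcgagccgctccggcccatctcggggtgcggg
Per2, chr9:99496944-99497243, minus strand: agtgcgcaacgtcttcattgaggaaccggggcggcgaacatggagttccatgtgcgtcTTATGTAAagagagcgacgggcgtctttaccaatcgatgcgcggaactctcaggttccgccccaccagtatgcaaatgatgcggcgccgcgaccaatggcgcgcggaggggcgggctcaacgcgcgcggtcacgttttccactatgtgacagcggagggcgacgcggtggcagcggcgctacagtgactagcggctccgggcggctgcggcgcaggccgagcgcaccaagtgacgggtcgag
Nr1d2, chr15:9954784-9955083, plus strand: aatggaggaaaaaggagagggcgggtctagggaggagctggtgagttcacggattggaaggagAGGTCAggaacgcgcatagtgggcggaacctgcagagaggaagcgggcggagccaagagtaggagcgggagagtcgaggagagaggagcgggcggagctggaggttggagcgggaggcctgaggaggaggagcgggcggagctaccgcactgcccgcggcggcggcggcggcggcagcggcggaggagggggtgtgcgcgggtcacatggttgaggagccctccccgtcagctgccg
Arntl, chr1:176766078-176766377, plus strand: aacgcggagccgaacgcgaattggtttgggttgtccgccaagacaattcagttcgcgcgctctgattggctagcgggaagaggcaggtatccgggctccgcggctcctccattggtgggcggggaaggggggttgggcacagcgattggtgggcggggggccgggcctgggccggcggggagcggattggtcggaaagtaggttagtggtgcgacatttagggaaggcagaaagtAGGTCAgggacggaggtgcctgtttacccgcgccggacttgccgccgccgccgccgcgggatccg
The motifs begin 191 bases before the start in Nr1d1, 198 in Tef, 192 in Per2, 187 in Nr1d2 and 15 in Arntl. Nr1d1 has a second listed window, which holds none of the 3 motifs, and the windows of Dbp, Per3, Cry2 and Npas2 held none either. Over all 33469 promoter windows in the table, 6.42% held the E-box, 1.01% a D-box and 16.2% the receptor core site, so a match describes these letters and is not a bound site.

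Nr1d1 stood at 49.8, 58.6, 70.5, 90.0 and 60.6 CPM in high-fat rats, against 17.9, 18.1, 27.3, 8.70 and 13.0 CPM in regular-diet rats, and its log2 fold change was 1.92 with an SE of 0.20 and adjusted p = 2.62e-05. Its partner Nr1d2 stood at 103.2, 136.7, 141.1, 192 and 111.5 CPM in high-fat rats, against 54.1, 76.3, 63.6, 40.0 and 54.3 CPM in regular-diet rats, and its log2 fold change was 1.24 with an SE of 0.15 and adjusted p = 0.00011. In both genes every high-fat rat lay above every regular-diet rat, with high-fat rat 4 highest and regular-diet rat 4 lowest. Per3, a period gene, had 43.0, 86.1, 77.8, 123.3 and 61.2 CPM in high-fat rats, against 27.4, 33.5, 34.4, 17.1 and 26.5 CPM in regular-diet rats, and its log2 fold change was 1.47 with an SE of 0.21 and adjusted p = 0.000661. Per2, the other period gene called, had 29.5, 46.3, 39.7, 64.7 and 34.7 CPM in high-fat rats, against 24.2, 20.9, 22.9, 26.9 and 22.6 CPM in regular-diet rats, and its log2 fold change was 0.86 with an SE of 0.17 and adjusted p = 0.0166. High-fat rat 4 was again highest in both period genes, and the groups did not overlap, although the lowest high-fat rat (rat 1) lay close to the highest regular-diet rat. The cryptochrome gene Cry2 was tight within each group, at 43.5, 46.1, 42.3, 50.6 and 46.9 CPM in high-fat rats, against 29.2, 31.6, 32.7, 27.6 and 28.2 CPM in regular-diet rats, and its log2 fold change was 0.61 with an SE of 0.07 and adjusted p = 0.00011.

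The output gene Dbp had the largest clock difference, with 16.4, 34.1, 30.5, 79.1 and 21.8 CPM in high-fat rats, against 7.64, 6.32, 7.42, 5.69 and 7.04 CPM in regular-diet rats, and its log2 fold change was 2.38 with an SE of 0.34 and adjusted p = 0.000729. Regular-diet rats were within a narrow band, while high-fat rats spread widely and rat 4 stood far above the other 4. Without high-fat rat 4 the log2 fold change of Dbp was 1.92, with an adjusted p of 0.000104. Tef, the related factor, had 117.3, 145.03, 140.1, 208 and 115.3 CPM in high-fat rats, against 78.3, 91.2, 99.6, 72.7 and 84.9 CPM in regular-diet rats, and its log2 fold change was 0.76 with an SE of 0.12 and adjusted p = 0.00242. Among the activators, Arntl had 48.7, 36.9, 46.2, 17.0 and 53.8 CPM in high-fat rats, against 77.2, 65.4, 72.4, 66.6 and 73.3 CPM in regular-diet rats, and its log2 fold change was -0.79 with an SE of 0.16 and adjusted p = 0.0166. Npas2 had 29.1, 27.0, 30.4, 15.7 and 36.3 CPM in high-fat rats, against 46.5, 43.7, 41.6, 39.0 and 39.8 CPM in regular-diet rats, and its log2 fold change was -0.59 with an SE of 0.12 and adjusted p = 0.0202. The rat with the highest Dbp, high-fat rat 4, had the lowest Arntl and Npas2, and neither gene's groups overlapped.

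The remaining clock genes did not pass the test. Clock itself had a log2 fold change of -0.16 (adjusted p = 0.0953), with groups that did not overlap, and the cryptochrome gene Cry1 had -0.62 (adjusted p = 0.053), opposite in sign to Cry2. Per1 ranged from 60.0 to 234 CPM in high-fat rats and from 76.2 to 127.9 CPM in regular-diet rats (0.35, adjusted p = 0.773). None of the 9 calls was lost without high-fat rat 4, or without that rat and regular-diet rat 4 together. Without high-fat rat 2 the adjusted p was 0.0594 for Arntl, 0.0663 for Npas2 and 0.0564 for Per2, and without regular-diet rat 1 it was 0.0545 for Npas2. In a fit of the 2 groups only, Arntl and Npas2 were not called (adjusted p = 0.0938 and 0.108).

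**Figure D2:**
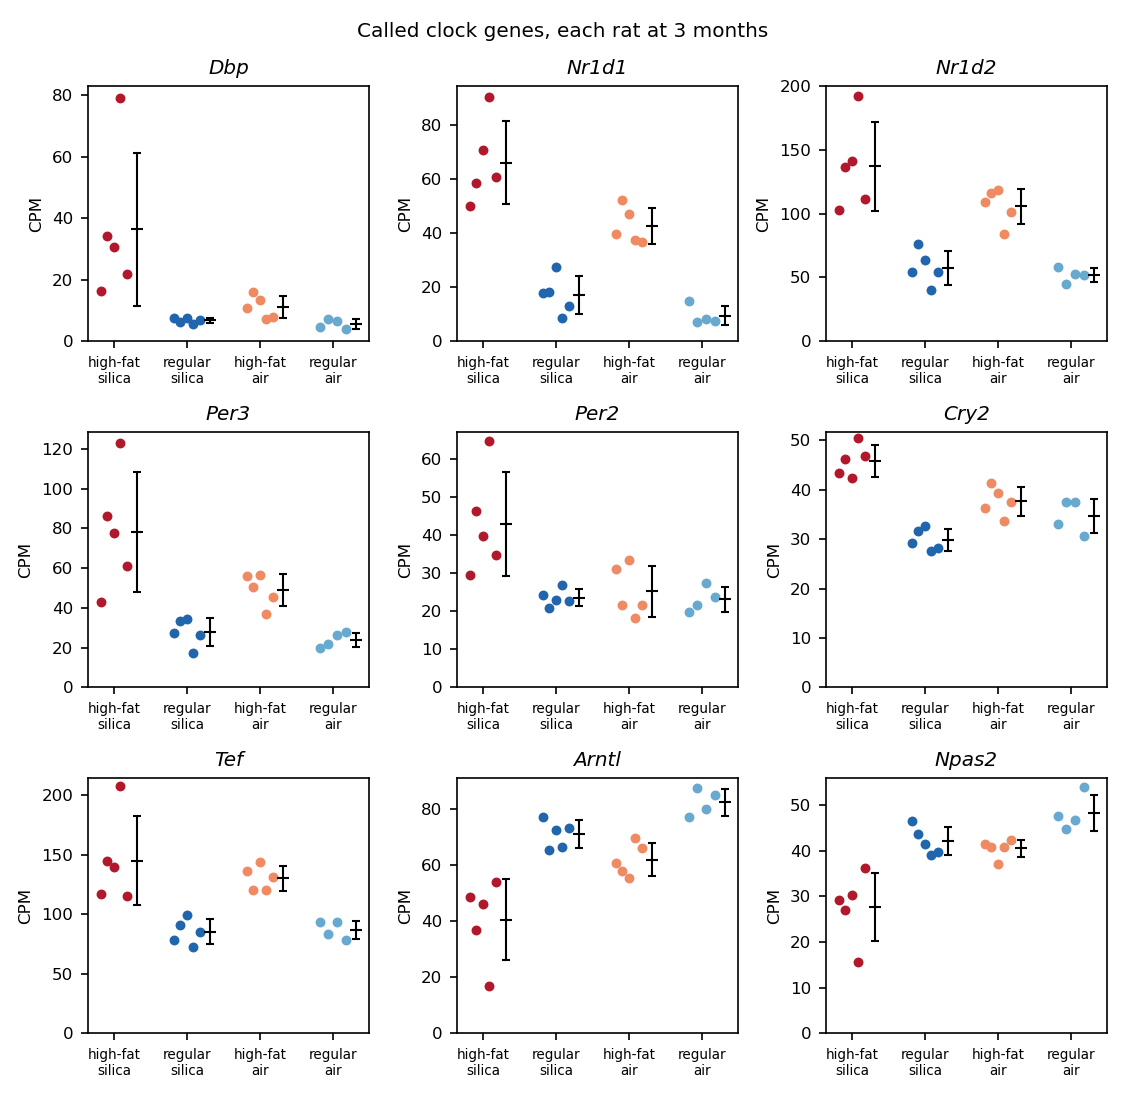
CPM of the 9 called clock genes in each rat at 3 months, by diet and exposure; points are rats and bars the mean ± SD. In silica rats Nr1d1 lies between 49.8 and 90.0 CPM on the high-fat diet and between 8.70 and 27.3 CPM on the regular diet, and high-fat rat 4 is the lone high point for Dbp at 79.1 CPM.

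The largest fold change of all called genes was that of Cyp1a1, a cytochrome P450 that oxidises aromatic compounds and is the classic target of the aryl hydrocarbon receptor (AhR). It had 24.4, 15.5, 41.3, 18.0 and 37.0 CPM in high-fat rats, against 0.468, 0.137, 0.495, 0.836 and 0.276 CPM in regular-diet rats. Cyp1a1 took 945 counts over the 5 high-fat rats and 15 over the 5 regular-diet rats, and its log2 fold change was 5.95 with an SE of 0.50 and adjusted p = 5.31e-07. Every high-fat rat expressed it at a clear level and no regular-diet rat reached 1 CPM. Of 9 AhR pathway genes tested Cyp1a1 was the one called, and their median log2 fold change was -0.0033. Ahrr, which encodes the AhR repressor, had 0.80 (adjusted p = 0.274), Cyp1b1 -0.16 (0.84), Tiparp -0.07 (0.786) and Nqo1 0.04 (0.974). Cyp1a2 had at most 4 counts in any silica rat and was not tested.

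Some genes of sterol and unsaturated fatty acid supply rose on the high-fat diet. Of 23 cholesterol synthesis and uptake genes tested, 3 rose and none fell, 20 had a positive log2 fold change, and their median was 0.25. Sqle, the squalene epoxidase, had 46.6, 39.1, 34.7, 40.7 and 39.5 CPM in high-fat rats, against 29.5, 31.1, 24.9, 34.1 and 25.7 CPM in regular-diet rats, and its log2 fold change was 0.47 with an SE of 0.09 and adjusted p = 0.00756. Sqle was higher in every high-fat rat than in any regular-diet rat. Fdft1, the squalene synthase, had 91.7, 82.3, 67.6, 70.6 and 77.3 CPM in high-fat rats, against 64.5, 59.5, 60.5, 64.9 and 61.2 CPM in regular-diet rats, and its log2 fold change was 0.33 with an SE of 0.07 and adjusted p = 0.0408. Its groups did not overlap either, with high-fat rat 1 highest. Among members below the threshold, Srebf2, which encodes the sterol-regulated factor SREBP-2, had 0.22 (adjusted p = 0.0578). The summed level of the list was 1194 to 1428 CPM in high-fat rats and 1016 to 1183 CPM in regular-diet rats.

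Srebf1, which encodes the transcription factor SREBP-1 of fatty acid synthesis, had 204, 159.5, 163, 175 and 168 CPM in high-fat rats, against 109.1, 96.2, 116.3, 140.6 and 110.3 CPM in regular-diet rats, and its log2 fold change was 0.60 with an SE of 0.10 and adjusted p = 0.00459. Fads2, the delta-6 desaturase, had 72.4, 65.5, 64.1, 66.5 and 76.7 CPM in high-fat rats, against 50.7, 39.9, 58.4, 55.2 and 44.2 CPM in regular-diet rats, and its log2 fold change was 0.48 with an SE of 0.10 and adjusted p = 0.0263. These were the 2 of 17 fatty acid synthesis and desaturation genes that rose, none fell, and the list median was 0.10. The list summed to 5303 to 6593 CPM in high-fat rats and 4745 to 7119 CPM in regular-diet rats, so the sums overlapped, while neither Srebf1 nor Fads2 did. A stearoyl-CoA desaturase row, Scd1, rose as well (0.59, adjusted p = 0.0202), and the row Scd had 0.38 (0.0625); the files do not state how reads of these similar genes were divided. Fasn and Acly, which make palmitate and its precursor, had -0.09 (adjusted p = 0.83) and 0.02 (0.94). Calls that depended on single rats were Fdft1, lost without any 1 of 7 rats (adjusted p up to 0.105), Fads2, lost without any 1 of 3 (up to 0.077), and Scd1, lost without either of 2 (up to 0.0677). In a fit of the 2 groups only, the adjusted p was 0.0514 for Sqle, 0.085 for Fdft1 and 0.055 for Scd1, which ended those calls.

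Of 29 genes of fatty acid oxidation and PPAR signalling, 2 rose, none fell, and the median was 0.08. Acot1, a cytosolic acyl-CoA thioesterase, was low in all rats, at 4.41, 3.37, 2.12, 2.32 and 2.51 CPM in high-fat rats, against 0.156, 0.962, 1.24, 1.34 and 0.690 CPM in regular-diet rats, and its log2 fold change was 1.70 with an SE of 0.33 and adjusted p = 0.0115. Cpt1a, the gate enzyme of mitochondrial fatty acid import, had 106.5, 103.9, 95.2, 108.4 and 99.9 CPM in high-fat rats, against 74.4, 81.5, 92.7, 80.4 and 80.8 CPM in regular-diet rats, and its log2 fold change was 0.32 with an SE of 0.06 and adjusted p = 0.0115. Groups of both genes did not overlap. Without both rats numbered 4, a setting added after seeing the data, the adjusted p of Cpt1a was 0.075. Hadh, of mitochondrial beta-oxidation, rose outside the list (0.38, adjusted p = 0.0334), a call lost without any 1 of 7 rats (adjusted p up to 0.0874), in a fit of the 2 groups only (0.0846) and with voom (0.0687). PPAR targets Pdk4 and Plin2 had 0.16 (adjusted p = 0.825) and -0.24 (0.19). Of 13 cholesterol efflux genes 1 rose: Abca1, the lipid exporter of macrophages and other cells, had 678, 619, 665, 613 and 608 CPM in high-fat rats, against 485, 478, 505, 507 and 493 CPM in regular-diet rats, and its log2 fold change was 0.37 with an SE of 0.07 and adjusted p = 0.00862. All 5 high-fat rats were above all 5 regular-diet rats for Abca1, while its relative Abcg1 had -0.12 (adjusted p = 0.675).

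Aqp3 encodes a membrane channel that passes water and glycerol. It had 17.8, 11.9, 9.71, 11.1 and 9.44 CPM in high-fat rats, against 3.27, 2.1999, 1.98, 4.85 and 2.90 CPM in regular-diet rats, and its log2 fold change was 2.0 with an SE of 0.23 and adjusted p = 5.77e-05. The high-fat rats were all above the regular-diet rats, with rat 1 the highest. The glycerol kinase gene Gk had 96.9, 89.9, 103.8, 107.9 and 103.99 CPM in high-fat rats, against 128.2, 129.5, 119.4, 145.7 and 106.6 CPM in regular-diet rats, and its log2 fold change was -0.32 with an SE of 0.07 and adjusted p = 0.033. Its groups overlapped, and the call was lost without any 1 of 7 rats (adjusted p up to 0.121), in a fit of the 2 groups only (0.108) and with voom (0.0531). The other 7 of 9 tested glycerol and water channel genes did not pass. Scn4a, the sodium channel of skeletal muscle fibres, had 9.29, 7.76, 6.60, 7.32 and 7.52 CPM in high-fat rats, against 2.49, 1.51, 2.47, 1.67 and 3.45 CPM in regular-diet rats, and its log2 fold change was 1.70 with an SE of 0.20 and adjusted p = 5.96e-05. The groups did not overlap and rats within a group lay close together. None of 10 cardiac and striated muscle genes was called. All 10 had positive log2 fold changes (median 0.30), and their summed level ran from 177 to 874 CPM in high-fat rats and from 183 to 803 CPM in regular-diet rats, so this sum varied widely in both groups; its part in Scn4a was not tested.

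Among further genes that rose, Cytl1, a secreted cytokine-like protein, had 45.4, 44.7, 57.4, 44.7 and 49.9 CPM in high-fat rats, against 21.8, 27.9, 29.4, 27.8 and 36.9 CPM in regular-diet rats, and its log2 fold change was 0.75 with an SE of 0.11 and adjusted p = 0.000661. Emcn, the endothelial sialomucin endomucin, had 119.2, 130.7, 141.2, 133.1 and 121.7 CPM in high-fat rats, against 107.4, 92.4, 102.3, 84.8 and 93.3 CPM in regular-diet rats, and its log2 fold change was 0.43 with an SE of 0.06 and adjusted p = 0.0014. Mzb1, a chaperone of plasma cells and B cells, had 8.98, 11.6, 6.85, 10.004 and 7.52 CPM in high-fat rats, against 4.37, 3.99, 3.71, 6.02 and 3.73 CPM in regular-diet rats, and its log2 fold change was 1.05 with an SE of 0.18 and adjusted p = 0.00486. In all 3 genes the high-fat rats lay above the regular-diet rats without overlap. Mzb1 was the 1 of 9 tested B and plasma cell genes that was called (median 0.24), with Ms4a1 at 0.61 (adjusted p = 0.36) and Xbp1 at -0.24 (0.119); their summed level was 462 to 560 CPM in high-fat rats and 486 to 605 CPM in regular-diet rats, and Cd79a was listed at 0 counts in all 10 rats. Tie1, an endothelial receptor kinase, had 283, 243, 280.2, 248 and 237 CPM in high-fat rats, against 188, 196, 233, 198 and 225 CPM in regular-diet rats, and its log2 fold change was 0.31 with an SE of 0.07 and adjusted p = 0.0284. Its groups did not overlap, and the call was lost without any 1 of 5 rats (up to 0.099) and in a fit of the 2 groups only (0.0724). Tie1 was the 1 of 12 endothelial genes called, and the median of that list was 0.08. Pecam1 and Cdh5, which define endothelium, had 0.09 (adjusted p = 0.42) and 0.06 (0.774).

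Of 7 neutrophil-attracting chemokines and receptors tested, 2 fell in high-fat rats and none rose. All 7 log2 fold changes were negative, with a median of -0.49, and the summed levels overlapped, at 1165 to 1607 CPM in high-fat rats and 1333 to 1627 CPM in regular-diet rats. Cxcl6, a ligand of the neutrophil chemokine receptors, had 30.9, 20.7, 27.3, 13.0 and 33.2 CPM in high-fat rats, against 55.7, 55.8, 50.5, 58.4 and 48.6 CPM in regular-diet rats, and its log2 fold change was -1.09 with an SE of 0.15 and adjusted p = 0.000661. Cxcl1, a second such ligand, had 44.6, 57.6, 47.3, 48.9 and 43.7 CPM in high-fat rats, against 90.9, 85.0, 63.7, 66.1 and 75.5 CPM in regular-diet rats, and its log2 fold change was -0.65 with an SE of 0.14 and adjusted p = 0.0229. For both genes each high-fat rat was below each regular-diet rat, and high-fat rat 4 had the lowest Cxcl6. Cxcl2 had -0.62 (adjusted p = 0.0793), and the receptor genes Cxcr1 and Cxcr2 had -0.49 (0.351) and -0.16 (0.688). The Cxcl1 call was lost without regular-diet rat 1 or 2 or high-fat rat 3 or 5 (adjusted p up to 0.0705).

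Lcn2, which encodes the iron-siderophore trap lipocalin 2, had 58.1, 38.5, 36.6, 36.6 and 47.5 CPM in high-fat rats, against 80.3, 79.5, 76.5, 67.4 and 64.9 CPM in regular-diet rats, and its log2 fold change was -0.76 with an SE of 0.12 and adjusted p = 0.00277. Chi3l1, a chitinase-like protein of macrophages and epithelium, had 329, 284, 244, 249 and 263 CPM in high-fat rats, against 357, 353, 354, 387 and 304 CPM in regular-diet rats, and its log2 fold change was -0.36 with an SE of 0.07 and adjusted p = 0.0202. The groups of Lcn2 did not overlap, those of Chi3l1 did. These were the 2 of 14 antimicrobial and acute-phase genes called, and the list median was -0.21. Il18, the interleukin released by inflammasomes, had 27.4, 22.1, 22.3, 28.2 and 24.8 CPM in high-fat rats, against 39.6, 35.6, 33.3, 46.5 and 33.1 CPM in regular-diet rats, and its log2 fold change was -0.59 with an SE of 0.11 and adjusted p = 0.00891. It was the 1 of 11 inflammasome and interleukin 1 genes called (median -0.13). Il1b had 0.08 (adjusted p = 0.852) and Nlrp3 -0.21 (0.482), while Tnf and Il6 had at most 4 and 5 counts in any silica rat and were not tested. Neutrophil marker genes were not called: the 7 tested had negative log2 fold changes with a median of -0.20, S100a9 had -0.46 (adjusted p = 0.245), their summed level was 475 to 608 CPM in high-fat rats and 555 to 833 CPM in regular-diet rats, and Mpo and Elane had at most 3 counts in any silica rat. The part of neutrophil number in the chemokine and Lcn2 differences was not tested.

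Of 14 monocyte-attracting CC chemokines and receptors, 2 fell, none rose, and the median was -0.32. Ccl9 had 32.6, 21.2, 17.6, 20.01 and 20.1 CPM in high-fat rats, against 43.2, 38.1, 41.7, 63.7 and 42.1 CPM in regular-diet rats, and its log2 fold change was -1.04 with an SE of 0.21 and adjusted p = 0.0194. Ccl6 had 329, 258, 279, 314 and 272 CPM in high-fat rats, against 361, 326, 396, 393 and 348 CPM in regular-diet rats, and its log2 fold change was -0.33 with an SE of 0.07 and adjusted p = 0.0202. Regular-diet rat 4 was highest for Ccl9 and high-fat rat 1 stood above the other high-fat rats, without overlap between groups, while the Ccl6 groups overlapped. Both calls were lost without regular-diet rat 4 (adjusted p = 0.0581 for Ccl9 and 0.0634 for Ccl6) and without any 1 of high-fat rats 2, 3 and 5 (up to 0.0716 for Ccl9 and 0.0705 for Ccl6). Ccl6 was also not called in a fit of the 2 groups only (0.0724). Ccl2, the main monocyte attractant, had -0.16 (adjusted p = 0.719).

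Some macrophage genes fell in high-fat rats. Of 13 alveolar macrophage genes tested, 5 fell, none rose, 12 had negative log2 fold changes, and the median was -0.35. Itgax, the CD11c integrin chain, had 78.4, 65.9, 62.4, 78.2 and 75.5 CPM in high-fat rats, against 102.3, 88.8, 105.2, 126.4 and 103.01 CPM in regular-diet rats, and its log2 fold change was -0.55 with an SE of 0.09 and adjusted p = 0.00406. Cybb, the catalytic subunit of the phagocyte NADPH oxidase, had 135.1, 117.9, 107.6, 119.7 and 107.8 CPM in high-fat rats, against 166, 147.8, 170.2, 204 and 165 CPM in regular-diet rats, and its log2 fold change was -0.54 with an SE of 0.09 and adjusted p = 0.00242. The groups did not overlap in either gene, and regular-diet rat 4 was highest in both. Mrc1, the mannose receptor, had 306, 253, 254, 292 and 262 CPM in high-fat rats, against 345, 308, 391, 527 and 334 CPM in regular-diet rats, and its log2 fold change was -0.48 with an SE of 0.11 and adjusted p = 0.0327. Msr1, a scavenger receptor, had 100.01, 82.6, 95.7, 96.3 and 98.5 CPM in high-fat rats, against 125.96, 118.9, 131.6, 142.1 and 111.8 CPM in regular-diet rats, and its log2 fold change was -0.41 with an SE of 0.09 and adjusted p = 0.0363. Neither gene's groups overlapped, regular-diet rat 4 was again highest in both, and Chi3l1 is the fifth gene that fell. Calls of Mrc1, Msr1 and Chi3l1 were lost without regular-diet rat 4 (adjusted p = 0.0578, 0.103 and 0.0635) and without several other single rats (up to 0.102, 0.118 and 0.0776). A fit of the 2 groups only did not call Mrc1 (0.108) or Chi3l1 (0.0846). Marco, a scavenger receptor used to mark these cells, had at most 5 counts in any silica rat and was not tested, Cd68 had -0.27 (adjusted p = 0.311) and Pparg -0.31 (0.332). The summed level of the 13 genes was 1019 to 1240 CPM in high-fat rats and 1276 to 1722 CPM in regular-diet rats.

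Of 18 lipid-handling macrophage genes, 4 fell, none rose, 17 had negative values, and the median was -0.27. Trem2, a lipid-sensing receptor of macrophages, had 40.3, 34.9, 39.0, 42.2 and 30.4 CPM in high-fat rats, against 55.8, 58.4, 74.2, 76.8 and 57.3 CPM in regular-diet rats, and its log2 fold change was -0.79 with an SE of 0.13 and adjusted p = 0.00365. Ctsk, the collagen-degrading cathepsin K, had 28.3, 22.6, 20.7, 22.2 and 20.2 CPM in high-fat rats, against 41.8, 28.6, 38.8, 53.8 and 38.5 CPM in regular-diet rats, and its log2 fold change was -0.82 with an SE of 0.13 and adjusted p = 0.00242. Atp6v0d2, a subunit of the proton pump that acidifies lysosomes, had 13.7, 8.79, 11.8, 14.8 and 12.4 CPM in high-fat rats, against 21.4, 20.8, 26.8, 28.3 and 21.8 CPM in regular-diet rats, and its log2 fold change was -0.96 with an SE of 0.18 and adjusted p = 0.0108. In these 3 genes every high-fat rat was below every regular-diet rat, though for Ctsk high-fat rat 1 and regular-diet rat 2 nearly met. Lpl, the lipoprotein lipase, had 559, 485, 598, 583 and 537 CPM in high-fat rats, against 633, 671, 729.8, 754 and 621 CPM in regular-diet rats, and its log2 fold change was -0.30 with an SE of 0.06 and adjusted p = 0.0248. Its groups did not overlap, and the call was lost without regular-diet rat 4 or high-fat rat 2 or 5 (adjusted p up to 0.0829) and in a fit of the 2 groups only (0.0846). Gpnmb had -0.46 (adjusted p = 0.115), Lgals3 -0.32 (0.173), Spp1 -0.06 (0.96) and Mmp12, the macrophage elastase, -0.05 (0.901). The list summed to 4895 to 6193 CPM in high-fat rats and 5949 to 7973 CPM in regular-diet rats, which overlap. Whether there were fewer macrophages or less RNA of these genes per macrophage was not tested.

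**Figure D3:**
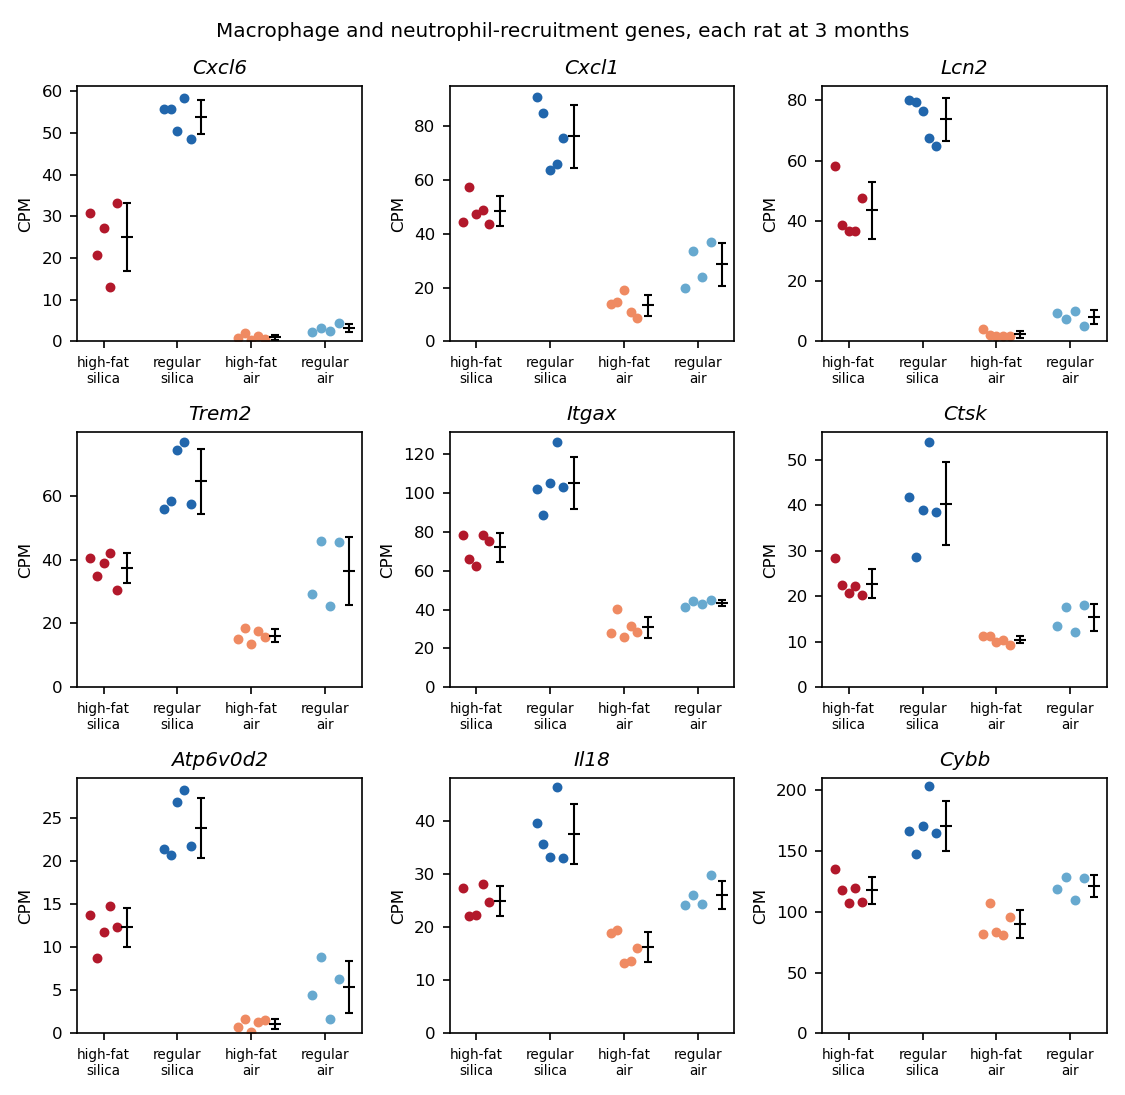
CPM of 9 called chemokine, antimicrobial and macrophage genes in each rat at 3 months, by diet and exposure; points are rats and bars the mean ± SD. Lcn2 lies between 36.6 and 58.1 CPM in high-fat silica rats and between 64.9 and 80.3 CPM in regular-diet silica rats, and no rat in air exceeds 10.1 CPM.

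Pla2g15, a lysosomal phospholipase, had 94.8, 73.8, 80.3, 82.4 and 77.3 CPM in high-fat rats, against 106.9, 102.4, 131.5, 132.4 and 114.3 CPM in regular-diet rats, and its log2 fold change was -0.53 with an SE of 0.09 and adjusted p = 0.00333. Noxo1, an organiser subunit of a non-phagocytic NADPH oxidase, had 80.2, 59.5, 68.1, 50.0 and 56.2 CPM in high-fat rats, against 92.3, 87.6, 89.2, 101.00 and 92.2 CPM in regular-diet rats, and its log2 fold change was -0.55 with an SE of 0.09 and adjusted p = 0.00304. Both genes separated the groups without overlap. Cybb and Noxo1 were 2 of 10 oxidase genes tested, in a list drawn up after their values were seen, and the other 8 included Duox1 at 0.40 (adjusted p = 0.311). Sod2, the mitochondrial superoxide dismutase, had 288, 236, 231, 223 and 227 CPM in high-fat rats, against 299.6, 289.7, 319, 405 and 288 CPM in regular-diet rats, and its log2 fold change was -0.41 with an SE of 0.09 and adjusted p = 0.0313. It was the 1 of 21 oxidative stress genes called (median -0.07), and high-fat rat 1 nearly met the lowest regular-diet rat. Without regular-diet rat 4 its adjusted p was 0.0768, 4 other rats also decided the call (up to 0.0947), and a fit of the 2 groups only gave 0.0797. Called genes outside the lists included the arginine transporter Slc7a2 (-0.53, adjusted p = 0.0115), the argininosuccinate synthase Ass1 (-0.60, 0.0202), the survival gene Bcl2a1 (-0.52, 0.0164), the class I light chain B2m (-0.21, 0.0202), the Fc receptor Fcgr3a (-0.47, 0.0408) and the lipolysis co-activator Abhd5 (-0.34, 0.04). All of these but Slc7a2 lost the call without at least 1 single rat, with adjusted p of up to 0.0598 for Ass1, 0.0626 for Bcl2a1, 0.0862 for B2m, 0.129 for Fcgr3a and 0.127 for Abhd5. Of these, B2m (0.127), Fcgr3a (0.108) and Abhd5 (0.126) were also not called in a fit of the 2 groups only, Fcgr3a with the ribosomal RNA covariate (0.0604) and Ass1 with voom (0.0587).

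Hspa5, the main chaperone of the endoplasmic reticulum (BiP), had 516, 459, 472, 517 and 500.1 CPM in high-fat rats, against 745, 611, 609.5, 709.5 and 645 CPM in regular-diet rats, and its log2 fold change was -0.43 with an SE of 0.06 and adjusted p = 0.000483. Calr, the lectin chaperone calreticulin, had 788, 649, 664, 720.3 and 713 CPM in high-fat rats, against 924, 781, 846, 865 and 768 CPM in regular-diet rats, and its log2 fold change was -0.24 with an SE of 0.06 and adjusted p = 0.0417. Its groups overlapped, and the call was lost without any 1 of 6 rats (up to 0.139), in a fit of the 2 groups only (0.152) and with the ribosomal RNA covariate (0.0584). In a list of 18 reticulum chaperone genes drawn up after Hspa5 was seen, those 2 fell, 16 were negative and the median was -0.14, with Canx at -0.20 (adjusted p = 0.0699) and Hsp90b1 at -0.24 (0.114). P4ha1, which hydroxylates collagen prolines in the same compartment, had 133.1, 117.05, 123.5, 131.8 and 123.6 CPM in high-fat rats, against 161, 154, 150.3, 159 and 163 CPM in regular-diet rats, and its log2 fold change was -0.32 with an SE of 0.05 and adjusted p = 0.0014. None of 19 extracellular matrix genes passed (median 0.10). Npr3, the clearance receptor of natriuretic peptides, had 94.7, 85.5, 83.9, 121.7 and 114.5 CPM in high-fat rats, against 178, 178, 184, 243 and 189 CPM in regular-diet rats, and its log2 fold change was -0.96 with an SE of 0.18 and adjusted p = 0.0115. High-fat rats lay below regular-diet rats in Hspa5, P4ha1 and Npr3 alike, with regular-diet rat 4 far above the others for Npr3. The prohormone convertase gene Pcsk1, also highest in regular-diet rat 4, fell by 0.78 (adjusted p = 0.0115, 0.0502 without high-fat rat 3).

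No gene was called among 19 complement, 6 class II antigen presentation, 10 metalloproteinase, 18 type I interferon, 14 glucocorticoid response, 11 heat shock, 15 immediate early or 17 cell cycle genes tested. The interferon genes were negative in 16 of 18 (median -0.15), and the immediate early genes had a median of 0.31 with 12 of 15 positive. Markers of alveolar type 2 cells (12 genes, median -0.06), alveolar type 1 cells (10, -0.02), fibroblasts and smooth muscle (11, 0.20), club and goblet cells (9, 0.17), ciliated cells (10, 0.08), T cells (10, 0.08), mast cells (2, 0.05), mesothelium (6, 0.01) and adipocytes (5, 0.01) were likewise not called. The 7 erythroid genes tested were all negative, with a median of -0.34 and summed levels of 1798 to 3179 CPM in high-fat rats and 2183 to 2940 CPM in regular-diet rats. Defining adipocyte genes were near 0 in silica rats, where Adipoq had at most 6 counts and Plin1 at most 2. Genes that lung cells widely express were also near 0 in these counts, with at most 2 counts of the chaperone gene Hsp90aa1 and at most 8 of the collagen gene Col1a2 in any silica rat. A count near 0, for these or for Marco, Cd79a, Mpo and Elane, therefore does not show that the transcript was absent.

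**Figure D4:**
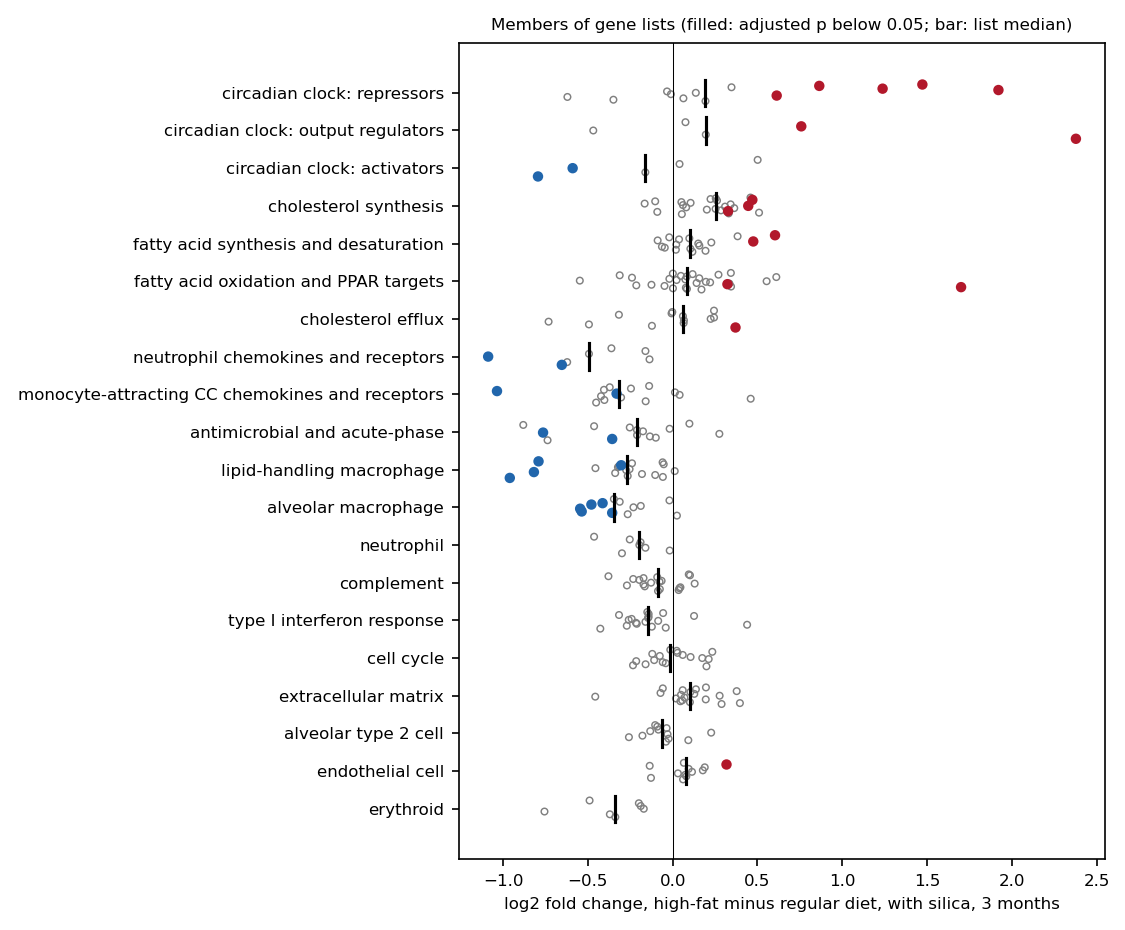
Log2 fold change of high-fat over regular diet with silica at 3 months for each tested member of 20 gene lists; filled points passed an adjusted p of 0.05 and bars are list medians. Called clock repressors and output genes lie between 0.61 and 2.38, while called macrophage and chemokine genes lie between -1.09 and -0.30.

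The same diet contrast was available in 9 rats that breathed air, none of which is among the silica rats. There 449 genes were called (2.95%), of which 251 were higher (1.65%) and 198 lower (1.3%). Of the 107 genes called with silica, 100 had the same sign in air, and 37 were called there in the same direction, which is 34.6% of the silica calls and 8.24% of the air calls. None was called in the opposite direction. Over all genes tested 65.1% had the same sign, and Pearson's r between the log2 fold changes was 0.392, across genes, which are not independent.

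In air, Cyp1a1 had 38.1, 47.1, 50.5, 86.8 and 45.0 CPM in high-fat rats, against 0.773, 0.934, 0.172 and 0.341 CPM in regular-diet rats (log2 fold change 6.53, adjusted p = 6.6e-08). Nr1d1 had 39.6, 52.2, 47.0, 37.4 and 36.7 CPM in high-fat rats, against 14.9, 7.16, 8.24 and 7.67 CPM in regular-diet rats (2.19, adjusted p = 0.00017). Aqp3 had 4.63, 3.57, 4.56, 3.50 and 4.69 CPM in high-fat rats, against 0.386, 1.25, 1.37 and 2.39 CPM in regular-diet rats (1.59, adjusted p = 0.0276), and the diet groups did not overlap in any of these 3 genes. Nr1d2, Per3, Tef, Acot1, Cpt1a, Srebf1, Scd1, Tie1 and Cytl1 also rose in air. The clock genes Dbp (0.94, adjusted p = 0.262), Per2 (0.13, 0.77), Cry2 (0.11, 0.437), Arntl (-0.41, 0.151) and Npas2 (-0.25, 0.254) did not pass there. Sqle had 0.02 (adjusted p = 0.926), at 27.5, 28.9, 26.2, 25.3 and 27.6 CPM in high-fat rats, against 28.0, 24.4, 27.1 and 27.4 CPM in regular-diet rats.

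Several chemokine and macrophage genes fell with the high-fat diet in air as well, at lower levels. Lcn2 had 4.22, 2.11, 1.64, 1.83 and 1.67 CPM in high-fat rats, against 9.46, 7.47, 10.1 and 5.11 CPM in regular-diet rats (-1.75, adjusted p = 0.00661). Cxcl1 had 13.9, 14.6, 18.9, 10.8 and 8.70 CPM in high-fat rats, against 19.9, 33.8, 23.9 and 37.0 CPM in regular-diet rats (-1.11, adjusted p = 0.00661). Cxcl6 was at most 4.43 CPM in any rat in air (-1.70, adjusted p = 0.0706). For Lcn2 and Cxcl6 even the lowest silica rat stood above the highest rat in air. Trem2 (-1.18, adjusted p = 0.00143), Atp6v0d2 (-2.31, 0.0104), Itgax (-0.49, 0.0271), Cybb (-0.44, 0.0187), Msr1 (-0.56, 0.0126) and Il18 (-0.68, 0.012) fell in air too. Some genes of these lists were called in air but not with silica: Mmp12 had -1.42 (adjusted p = 0.0166), Gpnmb -0.89 (0.00536) and Cxcl2 -1.78 (0.0144).

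A test of the difference between the diet effects with silica and in air called 0 genes with edgeR (0%, lowest adjusted p 0.488). It called 1 gene with DESeq2 and 0 with limma voom. Of 15234 genes, 990 had an unadjusted edgeR p under 0.05, a cut that many genes pass by chance alone. The 107 genes were chosen by the diet difference with silica, which is itself part of this interaction. That choice alone favours small interaction p-values among them, so their number is no sign of a difference from air. Of the 107 genes, 34 had an unadjusted interaction p under 0.05. The smallest of these were those of Cry2 (0.000171), Scn4a (0.000236), Npr3 (0.000392) and Emcn (0.000748), none of which passed the adjustment. Scn4a had 2.31, 3.90, 3.46, 2.28 and 2.34 CPM in high-fat rats, against 2.51, 2.65, 1.55 and 3.24 CPM in regular-diet rats. Npr3 had 365, 148.5, 355, 209.6 and 283 CPM in high-fat rats, against 297, 209, 224 and 264 CPM in regular-diet rats. Diet groups overlapped in air for both genes, where their log2 fold changes were 0.18 and 0.14.

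In rats sampled 9 months after silica, 537 of 15276 genes were called for diet (3.52%), 278 higher (1.82%) and 259 lower (1.7%). Of the 107 genes, 95 had the same sign at 9 months, 31 were called in the same direction (29.0% of the 3-month calls and 5.77% of the 9-month calls), and none was called in the opposite one, against 62.3% of the 14971 genes tested at both times with the same sign and Pearson's r of 0.418 across genes. Cyp1a1 averaged 3.56 ± 1.06 CPM in 6 high-fat rats and 0.103 ± 0.0953 CPM in 5 regular-diet rats (SD; 4.91, adjusted p = 5.99e-07). Nr1d1 averaged 41.8 ± 10.7 CPM in high-fat rats and 11.6 ± 2.34 CPM in regular-diet rats (SD; 1.85, adjusted p = 3.38e-06). Genes called again included Nr1d2, Per3, Dbp, Tef, Aqp3, Scn4a, Acot1, Cpt1a, Srebf1, Fads2, Sqle and Fdft1 among those higher, and Hspa5 and Mrc1 among those lower. The clock genes Arntl, Npas2, Per2 and Cry2 (0.27, adjusted p = 0.0795) were not called at 9 months. Aqp3 averaged 13.8 ± 2.63 CPM in high-fat rats and 8.24 ± 3.02 CPM in regular-diet rats (SD; 0.75, adjusted p = 0.026).

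Most of the chemokine and macrophage genes named above were not called at 9 months. There Cxcl6 averaged 52.5 ± 10.8 CPM in high-fat rats and 45.4 ± 19.2 CPM in regular-diet rats (SD; 0.21, adjusted p = 0.63). Lcn2 averaged 49.0 ± 8.33 CPM in high-fat rats and 51.3 ± 13.4 CPM in regular-diet rats (SD; -0.07, adjusted p = 0.864). Trem2 had -0.33 (adjusted p = 0.165), Ctsk -0.15 (0.731) and Itgax -0.36 (0.0964). The change of the diet effect from 3 to 9 months was tested for each gene, and 0 genes passed with edgeR (0%), 5 with DESeq2 and 2 with limma voom. Of 15759 genes, 1131 had an unadjusted edgeR p under 0.05, a cut that many pass by chance alone. The lowest adjusted p with edgeR was 0.0786, that of Cxcl6, which differed by 1.31 on the log2 scale. At 9 months the ribosomal RNA share also moved with diet, at 7.29% to 7.85% in high-fat rats and 2.60% to 5.35% in regular-diet rats, and with that share as a covariate 1 gene was called instead of 537. Diet and that share cannot be told apart there.

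**Figure D5:**
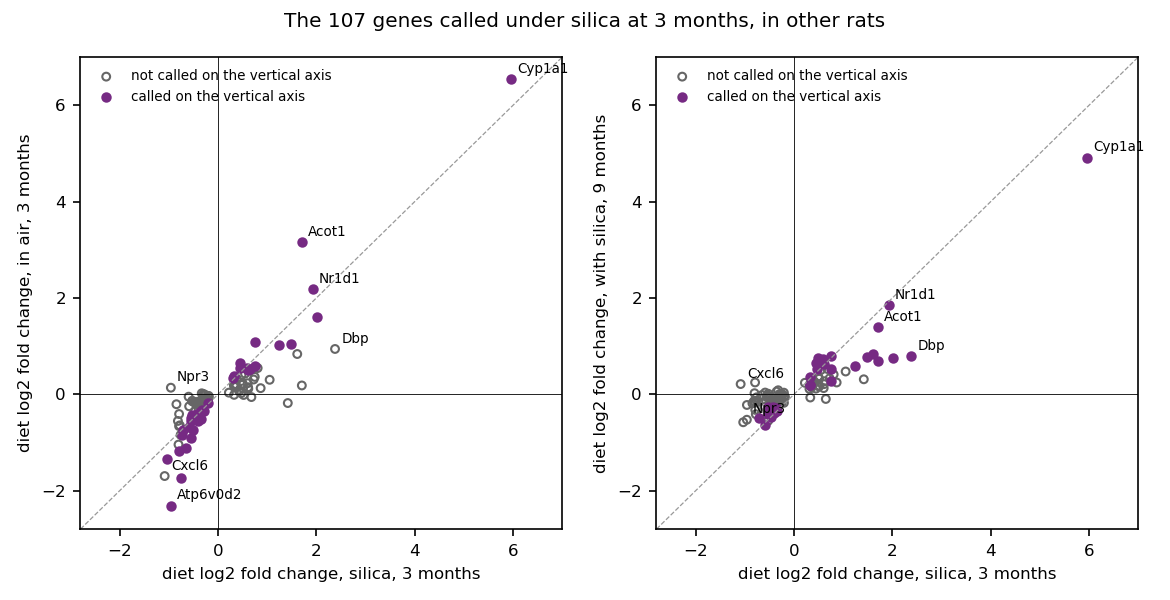
Diet log2 fold changes of the 107 genes called with silica at 3 months (horizontal) against those in air at 3 months (left, vertical) and with silica at 9 months (right, vertical); filled points were also called on the vertical axis and the dashed line marks equality. Cyp1a1 lies far up in both panels, at 6.53 in air and 4.91 at 9 months, while Cxcl6 is at -1.70 in air and 0.21 at 9 months.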

How the data were processed

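Lung RNA was sequenced from 42 rats. The 19 sampled at 3 months were analysed with 4 groups in 1 fit, and the 9-month rats in a fit of their own. The change of the diet effect between the times came from 1 joint fit of all 42 rats. The authors deposited 1 table of raw read counts per gene symbol and time point, per the labels and the file headers. The submitters' processing notes name TopHat2 2.0.9, Bowtie2 2.2.9, HTSeq 0.6.1, the build Rnor_6.0, and also Trimmomatic 0.35, SAMtools 0.1.19 and bcl2fastq 2.19, with no roles given. The strand setting of the counting and the annotation are not given in the sources used here, so counts of overlapping genes and of near-identical copies are uncertain.

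Genes were filtered with filterByExpr and scaled by TMM in edgeR 4.0.16 (R 4.3.3), which left 15234 genes at 3 months and 15276 at 9 months. Quasi-likelihood tests (legacy=FALSE) compared high-fat minus regular diet with silica and in air, their difference, and the diet effect at 9 minus 3 months (15759 genes). A gene was called at a Benjamini-Hochberg adjusted p below 0.05 over all genes tested, and the SE is the one implied by the F statistic. Total counts and ribosomal RNA shares (Rnr1 and Rnr2) were compared by two-sided exact permutation tests. The fits were tested on simulated data. Alternatives were RLE size factors, no low-count filter, DESeq2 1.42.0, limma 3.58.1 voom, legacy=TRUE, a fit of the 2 groups only, the ribosomal RNA share as a covariate and leaving out each rat. Wherever voom is named, it was run with sample quality weights. Leaving out both rats numbered 4 was added after seeing the data.

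Any called gene could be named, and values by rat were given for the 10 with the smallest p per direction and for called members of the lists. The values by rat of Npr3, and 10 called genes outside that rule, were added after their values were seen. The members and lists were chosen with earlier results of these data known, and 2 lists (reticulum chaperones and oxidase genes) were drawn up after seeing values in this work. No 2 libraries looked like copies, since chi-square divided by its degrees of freedom was 2.44 to 6.33 over 10 pairs of high-fat and 4.01 to 7.29 over 10 pairs of regular-diet silica rats. Promoter windows come from RefSeq (GRCr8), a later build than that of the counts, and were matched by symbol. Cyp1a1, Sqle and Fdft1 had no entry. The windows listed for Srebf1 held neither the sterol element TCACCCCAC, which 0.484% of all windows held, nor the E-box. Values of a few list members are not reported here.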

Additional observations from a re-analysis of the deposited data

Results flagged for a closer look

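In 10 cases a single rat stood apart from the other 4 of their group in a named gene or a library measure, of 116 groups examined by Dixon's criterion at 95%, and chance marks about 1 in 20 groups. Among high-fat silica rats, rat 4 had the highest Dbp at 79.1 CPM (next 34.1). Rat 1 of that group had the highest Ctsk at 28.3 CPM (next 22.6), Ccl9 at 32.6 CPM (next 21.2) and Sod2 at 288 CPM (next 236), and rat 2 had the lowest Msr1 at 82.6 CPM (next 95.7). Among regular-diet silica rats, rat 4 had the highest Ccl9 at 63.7 CPM (next 43.2), Sod2 at 405 CPM (next 319), Mzb1 at 6.02 CPM (next 4.37), Npr3 at 243 CPM (next 189) and Pcsk1 at 58.4 CPM (next 37.2). Without that rat Ccl9 and Sod2 lost their calls (adjusted p = 0.0581 and 0.0768), while Npr3 (0.0355), Pcsk1 (0.0148) and Mzb1 (0.00295) kept theirs. Dbp was also called without high-fat rat 4 (1.92, adjusted p = 0.000104). The cause of these single values was not tested.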

How the results depend on the processing

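The 107 diet calls with silica numbered 102 to 156 with RLE size factors, no filter, voom, legacy=TRUE or adjustment for ribosomal RNA content. They were 227 with DESeq2 (103 of the 107 among them), 59 in a fit of the 2 groups only and 69 without both rats numbered 4. Leaving out 1 rat gave 55 to 209 calls, with 55 without high-fat rat 2, 60 without high-fat rat 3, 69 without regular-diet rat 4 and 209 without regular-diet rat 3. The 449 calls in air became 730 with DESeq2, 956 with voom, 761 in a fit of the 2 groups only and 63 to 530 without 1 rat. The difference between silica and air had 1 call with DESeq2 and 0 in every fit without 1 rat. The 537 calls at 9 months became 1 after adjustment for ribosomal RNA content and 260 to 724 without 1 rat. The change from 3 to 9 months had 5 calls with DESeq2, 2 with voom and 0 to 4 without 1 rat. The causes of these changes were not tested. The exact tests of ribosomal RNA share (difference 0.107 to 0.307 percentage points) and library size (difference -701060 to -72801 counts) kept their sign without any 1 rat. Of 56 named genes, 29 kept the call under every alternative that gave a value, 25 lost it without some single rat, 1 more (Cpt1a) without both rats numbered 4, 18 under another setting, and 0 changed sign. Acot1, among the 29, had a value in 6 of the 7 settings other than leaving out a rat. No paired analysis was possible because no animal tag is shared between groups. With 5 rats per group and at most 8259635 counts per rat, small differences of low genes may go uncalled.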
